A study of Homo sapiens with 6 samples.

Results

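Differential H3K4me3 regions lay in clusters at 648 places in the genome of D283 tumorspheres. The authors compared H3K4me3 between cells with and without OTX2 silencing in 1000 bp windows, and their cluster table lists the places where such differential regions lie closer together than elsewhere. The clusters described here were taken from that table as the entries with at least 3 regions on chromosomes 1 to 22 and X, which gave 648 of 1964 entries. They hold 2530 of the 21652 differential regions on those chromosomes. The differential H3K4me3 values chose these clusters, so their H3K4me3 ratios, sizes and directions are given as a description. H3K27me3, gene positions and promoter sequence were not used in that choice.

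The series holds 6 chromatin immunoprecipitation sequencing (ChIP-seq) libraries of D283, an established Group 3 medulloblastoma line. All cells were transfected with siRNA and grown as floating tumorspheres on low-attachment plates in medium for neural precursors. OTX2high cells received the non-silencing scramble siRNA and OTX2low cells received OTX2 siRNA at 30 nM. H3K4me3 and H3K27me3 each have 1 library per condition, and 2 IgG control libraries have a title and a silencing label that name opposite conditions. Every comparison between conditions therefore sets 1 library against 1 library of 1 cell line, no replicate error can be given, and no p-value was computed. Per the file headers, filtering left 33137731 H3K4me3 tags for OTX2high and 20914582 for OTX2low. In bulk chromatin, fewer cells with a mark and less mark per cell cannot be told apart. A check of the line against Group 3 and photoreceptor-like markers found an H3K4me3 peak of both lists within 1000 bp of a start for 4 of the 5 markers with a known start (OTX2, CRX, NRL and IMPG2, not NR2E3). The same held for 5 of 7 glial markers, 1 of 4 markers of immune, endothelial and blood cells, and 1 of 2 markers of muscle, epithelial and mesenchymal cells.

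H3K4me3 is laid down by the SET1 and MLL (Trithorax-group) methyltransferases around the starts of active and poised genes, where promoters rich in CG pairs usually carry it. It normally forms a narrow domain on each side of a start, and some genes of cell identity carry a domain that reaches far into the gene body. H3K27me3 is the mark of Polycomb repressive complex 2, which keeps developmental genes silent. OTX2 is a homeobox transcription factor of the forebrain, retina and early cerebellum, and it is amplified or highly expressed in Group 3 medulloblastoma, a tumor that also expresses photoreceptor genes.

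The promoters of 7 genes show the kinds of start that the clusters hold. RefSeq sequences (GRCh38.p14) of the 250 bases before a start are printed 5′ to 3′ on the strand of the gene, with each CG pair in capitals. The first 4 belong to the genes with the lowest H3K4me3 ratio at a start (NHLH1, higher in OTX2low), to 2 retinal genes with high ratios (RD3 and IMPG2) and to the silenced gene itself (OTX2). Of those, NHLH1 lies at chr1:160366821-160367070 (+ strand), RD3 at chr1:211492163-211492412 (- strand), IMPG2 at chr3:101320576-101320825 (- strand) and OTX2 at chr14:56810480-56810729 (- strand).
NHLH1: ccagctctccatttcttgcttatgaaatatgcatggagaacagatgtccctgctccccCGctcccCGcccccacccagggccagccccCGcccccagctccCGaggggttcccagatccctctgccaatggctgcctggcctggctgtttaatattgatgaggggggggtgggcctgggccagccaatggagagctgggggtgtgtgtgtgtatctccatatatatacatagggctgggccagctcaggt
RD3: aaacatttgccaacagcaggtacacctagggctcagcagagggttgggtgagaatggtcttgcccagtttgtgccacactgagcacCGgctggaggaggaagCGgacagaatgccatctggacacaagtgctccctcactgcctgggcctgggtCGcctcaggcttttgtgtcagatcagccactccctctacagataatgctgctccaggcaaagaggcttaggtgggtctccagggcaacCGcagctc
IMPG2: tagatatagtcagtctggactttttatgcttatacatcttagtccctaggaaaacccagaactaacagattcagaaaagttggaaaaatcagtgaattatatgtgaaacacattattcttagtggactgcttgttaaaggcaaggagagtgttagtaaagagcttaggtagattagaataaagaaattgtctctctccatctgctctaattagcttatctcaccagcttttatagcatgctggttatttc
OTX2: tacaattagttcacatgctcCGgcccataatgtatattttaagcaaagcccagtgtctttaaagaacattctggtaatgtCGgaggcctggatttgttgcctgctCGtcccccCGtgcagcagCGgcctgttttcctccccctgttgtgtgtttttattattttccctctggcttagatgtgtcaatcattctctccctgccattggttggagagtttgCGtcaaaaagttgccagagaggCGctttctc
The other 3 are starts rich in CG pairs. Where a gene had several starts in its cluster, the one with the most CG pairs was printed. CRMP1 had 4 such starts, ELFN1 had 2 and RBBP4 had 2. CRMP1 (chr4:5893087-5893336, - strand) and ELFN1 (chr7:1665814-1666063, + strand) lie in clusters higher in OTX2low, and RBBP4 (chr1:32650958-32651207, + strand) lies in one higher in OTX2high.
CRMP1: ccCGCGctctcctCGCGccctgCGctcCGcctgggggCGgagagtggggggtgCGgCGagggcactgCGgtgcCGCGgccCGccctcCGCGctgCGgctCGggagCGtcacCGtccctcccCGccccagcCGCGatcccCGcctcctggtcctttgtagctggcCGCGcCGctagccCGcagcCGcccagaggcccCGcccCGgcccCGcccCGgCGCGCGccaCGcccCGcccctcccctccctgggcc
ELFN1: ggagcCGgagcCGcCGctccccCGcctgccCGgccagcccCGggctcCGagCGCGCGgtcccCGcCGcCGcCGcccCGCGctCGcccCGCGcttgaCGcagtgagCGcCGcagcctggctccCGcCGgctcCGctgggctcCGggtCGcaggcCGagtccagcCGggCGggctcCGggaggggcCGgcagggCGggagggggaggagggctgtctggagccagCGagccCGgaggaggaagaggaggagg
RBBP4: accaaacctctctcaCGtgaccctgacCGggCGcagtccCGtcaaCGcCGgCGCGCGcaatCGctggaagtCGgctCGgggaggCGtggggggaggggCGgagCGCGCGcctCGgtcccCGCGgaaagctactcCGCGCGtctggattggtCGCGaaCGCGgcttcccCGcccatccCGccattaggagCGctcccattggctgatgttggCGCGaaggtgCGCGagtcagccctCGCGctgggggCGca
The first 4 sequences held 4, 4, 0 and 7 CG pairs and the last 3 held 37, 35 and 37. Over all 22132 starts of protein-coding genes in the RefSeq table the median was 16. The searched motifs were CANNTG (the E-box bound by basic helix-loop-helix factors such as NHLH1), TAATCC (a core of OTX-type homeobox sites) and TATAAA, on both strands. CANNTG was in 58.1% of all such windows, TAATCC in 4.86% and TATAAA in 9.0%, and the E-box CACGTG overlaps a CG pair by its letters. The NHLH1 window holds 1 E-box, CAGATG, starting at base 41. RD3 holds 3, IMPG2 and OTX2 1 each, and the RBBP4 window holds the E-box CACGTG. IMPG2 holds TATAAA, and TAATCC was not found in any of the 7 windows. These matches describe the letters and not the binding of a factor.

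Most clusters had more H3K4me3 in OTX2high cells. By summed normalized reads of their regions, 583 of 648 clusters (90.0%) were higher in OTX2high and 65 were higher in OTX2low. The authors' table lists merged differential regions numbering 3.27% of the windows in their adjustment, which is a ratio of regions to windows and not a share of windows. Of all differential regions 74% were higher in OTX2high and 26% in OTX2low. The clusters had a median of 1172 reads in OTX2high and 809 in OTX2low. Their median log2 ratio was 0.59, and that of all differential regions was 0.61. Set against that overall shift, 299 clusters (46.1%) lay above it and 349 below, where 50% of all regions lie above by construction. The share of clusters higher in OTX2high is therefore the share before any correction for a shift that all differential regions have in common.

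The 648 clusters split by make-up into 472 whose regions were all higher in OTX2high, 39 whose regions were all higher in OTX2low and 137 with regions of both directions. Of the mixed clusters, 111 were higher in OTX2high by their summed reads and 26 in OTX2low. Median log2 ratios were 0.66 for the clusters wholly higher in OTX2high, -0.96 for those wholly higher in OTX2low and 0.34 for the mixed ones. Clusters wholly higher in OTX2low were also longer, with a median of 24900 bp against 11750 bp and 13000 bp. The clusters higher in OTX2low held large read totals despite their number: the 39 took 10.6% of the OTX2high reads and 21.7% of the OTX2low reads of all clusters.

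**Figure D1:**
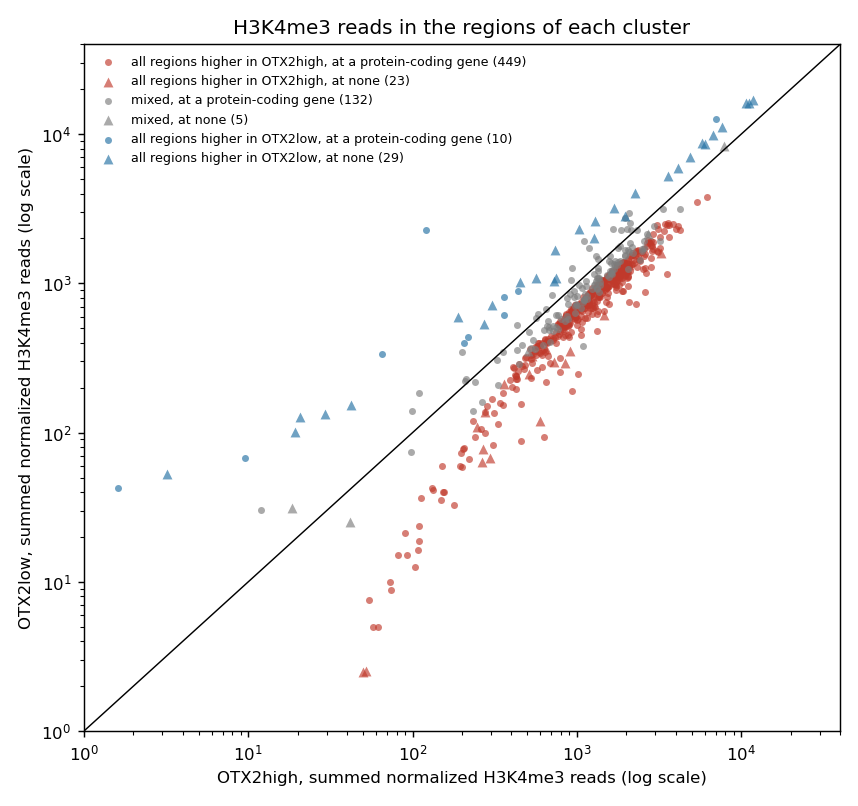
Summed normalized H3K4me3 reads in the regions of each of the 648 clusters, OTX2high on the x axis and OTX2low on the y axis (both log scale), with the line of equality; circles touch a protein-coding gene and triangles do not. Most clusters lie just below the line, the cluster at NHLH1 (121 against 2263 reads) lies far above it, and the gene-free clusters wholly higher in OTX2low reach the highest totals.

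A typical cluster was one strong region with weaker neighbours. Of the 648, 382 held 3 regions, 128 held 4, 64 held 5 and the rest held 6 to 23. The median cluster spanned 12300 bp (range 3800 to 172700 bp) with 1900 bp between neighbouring regions, and its strongest region held a median of 58.6% of its reads. Regions inside clusters carried a median of 183 reads in OTX2high and 134 in OTX2low, against 56.6 and 33.9 for the differential regions outside them. Regions inside were also less often weak, with 12.2% under 20 reads in both libraries against 29.9% outside.

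At the threshold, the 382 clusters of exactly 3 regions had a median log2 ratio of 0.57, a median length of 9000 bp and median reads of 969 in OTX2high and 663 in OTX2low. The 1311 entries of exactly 2 regions, which are not members, had a median log2 ratio of 0.55, a median length of 4000 bp and 654 and 466 reads. Of these 2 groups, 93.5% and 89.4% lay at a protein-coding gene. A longer span and a larger sum follow from the additional region, and the ratios were alike.

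The clusters lay at genes. A cluster touched a protein-coding gene, taken with 2000 bp on each side, in 591 of 648 cases (91.2%). That compares with 71.3% of all differential regions, which are shorter. At least 422 clusters (65.1%) held a gene start, since starts were known for 79.2% of these genes and for none on chromosome 8. In all, 977 of 19974 protein-coding genes (4.89%) lay at a cluster, 926 (4.64%) at one higher in OTX2high and 51 (0.255%) at one higher in OTX2low. The make-up of a cluster went with its place: 29 of the 39 clusters wholly higher in OTX2low touched no protein-coding gene, against 23 of the 472 wholly higher in OTX2high and 5 of the 137 mixed ones. Chromosome 1 held the most clusters, 63 higher in OTX2high and 13 in OTX2low, and chromosomes 6 and 21 held 23 and 8, all higher in OTX2high.

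Among clusters higher in OTX2high, the most regions lay at ARHGAP42, which encodes a GTPase-activating protein. The cluster at chr11:100630601-100774300 had 14 regions, all higher in OTX2high. They summed to 2521 reads in OTX2high and 1241 in OTX2low (log2 1.02), with a 95% counting interval of 0.92 to 1.13. One region held most of the reads, 1861 in OTX2high and 1063 in OTX2low, at a log2 ratio of 0.81. The other 13 held 12.8 to 102 reads in OTX2high, and 2 of them held none in OTX2low. Without the strongest region the log2 ratio was 1.89. Regions with few reads pass the authors' threshold only at a large ratio, and the part of that selection in this value was not tested. Counting intervals here and below are exact (Clopper-Pearson), cover counting error only, and take reads as independent, which PCR copies are not.

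IGF2BP1, an oncofetal RNA-binding protein, had 10 regions over chr17:48994101-49024700, all higher in OTX2high, with 1817 reads in OTX2high and 1098 in OTX2low (log2 0.73, 0.61 to 0.84). Its single regions ran from 0.37 to 1.85. The cluster at SLC3A2, the heavy chain of cell-surface amino acid transporters, had 9 regions and summed to 2509 and 1643 reads (log2 0.61, 0.52 to 0.70). Of those regions 8 were higher in OTX2high, and 1 at a start was higher in OTX2low, at -0.39. A further cluster with 11 regions touched no protein-coding gene. It lay at chr13:70672401-70746400, 563949 bp from KLHL1, with 3269 reads in OTX2high and 1608 in OTX2low (log2 1.02, 0.93 to 1.11). All 11 regions were higher in OTX2high, from 0.80 to 2.50, and its strongest held 1443 and 805 reads.

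**Figure D2:**
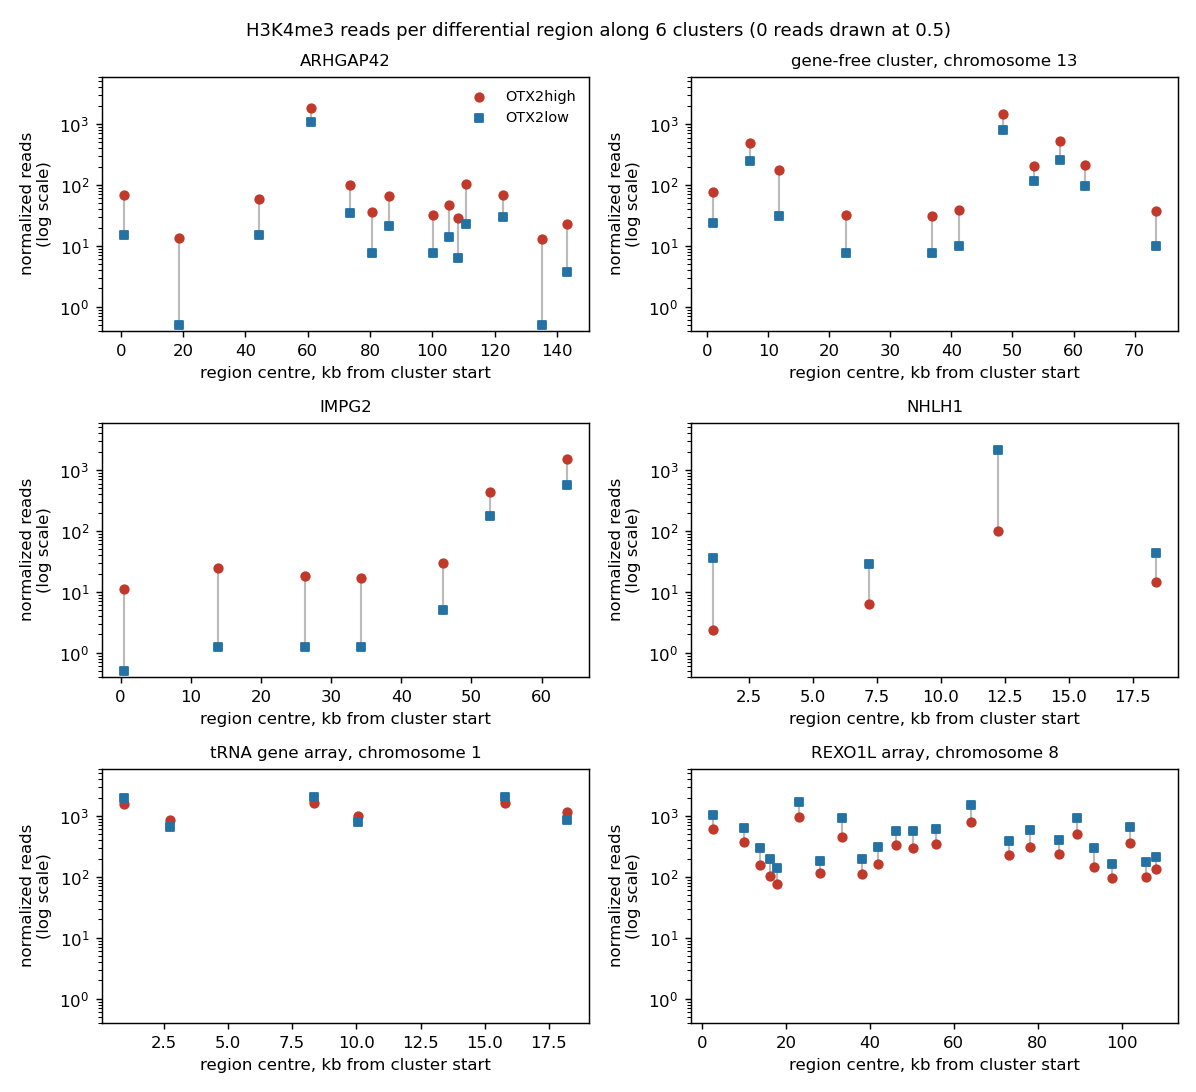
Normalized H3K4me3 reads (log scale) of every differential region in 6 clusters against the distance of its centre from the start of the cluster in kb; red circles are OTX2high, blue squares OTX2low, and 0 reads are drawn at 0.5. ARHGAP42, the gene-free cluster on chromosome 13 and IMPG2 have red above blue at every region, NHLH1 and the REXO1L array have blue above red at every region, and the order alternates along the 6 regions of the tRNA gene array.

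The silenced gene had a cluster over its own locus. At OTX2 (chr14:56794501-56822100) 5 regions summed to 3989 reads in OTX2high and 2317 in OTX2low (log2 0.78, 0.71 to 0.86). The region that holds the start had 3119 and 1768 reads (log2 0.82). The other 4 regions held 203 and 127, 243 and 152, 352 and 243, and 71.8 and 27.6 reads, and the last of these had the largest ratio, 1.38. A second cluster lay 74222 bp from OTX2, at chr14:56884701-56892800, inside the antisense RNA gene OTX2-AS1. It was weaker and its ratio larger: 295 reads in OTX2high and 67.7 in OTX2low (log2 2.12, 1.71 to 2.56). Its 3 regions held 238 and 57.7, 23.1 and 3.76, and 34.3 and 6.27 reads.

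Retinal genes were among the clusters with high ratios. IMPG2 encodes a proteoglycan of the matrix around photoreceptors, and its cluster (chr3:101253801-101321600) had 7 regions with 2065 reads in OTX2high and 747 in OTX2low (log2 1.47, 1.34 to 1.60). The region at the IMPG2 start had 1521 and 562 reads, and the next had 443 and 177. The remaining 5 held 11.2 to 30.3 reads in OTX2high and 0 to 5.01 in OTX2low. RD3, a regulator of guanylate cyclase in photoreceptors, had 3 regions (chr1:211484801-211494600) with 928 and 189 reads (log2 2.29, 2.05 to 2.55). The region at its start had 846 and 164 reads, and the flanking regions had 39.1 and 11.3, and 43.1 and 13.8. Of a list of 48 photoreceptor genes 4 lay at a cluster, all higher in OTX2high by summed reads, as were 90.0% of all clusters: OTX2, IMPG2, GNB3 and CRB1. Of all protein-coding genes, 4.89% lay at a cluster and 4.64% at one higher in OTX2high. GNB3, the cone transducin beta subunit, shares a cluster of 3198 and 1932 reads (log2 0.73) with CD4, GPR162, P3H3, CDCA3 and USP5. That total is not the signal of GNB3 alone. CRB1, a polarity protein of photoreceptors, lay at a mixed cluster whose 6 regions summed to 1693 and 1241 reads (0.45). The region at its start held only 34.3 and 86.5 of those reads and was higher in OTX2low, at -1.33.

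The largest log2 ratios among clusters with at least 100 reads in a library were at weaker clusters. ZNF532, a zinc finger gene, had 103 reads in OTX2high and 12.5 in OTX2low (log2 3.04, 2.11 to 4.13). LNP1 had 630 and 92.8 reads (2.76, 2.42 to 3.13), and COL25A1, a transmembrane collagen of neurons, had 109 and 16.3 (2.74, 1.91 to 3.68). The sialyltransferase gene ST3GAL1 (109 and 18.8 reads, 2.54) and the nuclear receptor coactivator gene NCOA3 (178 and 32.6 reads, 2.45) followed. GRAMD1B, a cholesterol transfer protein, had 456 and 87.8 reads (2.38), and IGSF21, a synaptic adhesion molecule, had 110 and 23.8 (2.21). A cluster at chr15:92667901-92679100, 12126 bp from FAM174B, had 597 and 120 reads (2.31). RD3 and the cluster at OTX2-AS1 complete these 10, and every region in the 10 was higher in OTX2high. The counting intervals of the weakest, such as ZNF532, overlapped those of LNP1 and RD3, so their order is not resolved by the counts.

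Other clusters with strong and large differences were noted after their values were seen. DST, a cytoskeletal linker gene, had 8 regions with 3514 reads in OTX2high and 1160 in OTX2low (log2 1.60). TRPM3, a cation channel gene, had 2281 and 728 (1.65), and SPATS2L had 2605 and 879 (1.57). HKDC1, a hexokinase family gene, had 1012 and 246 (2.04), and the mucin gene MUC16 had 787 and 254 (1.63). The largest read total of any cluster higher in OTX2high was at the heat shock genes HSPA1A and HSPA1B, which are near-identical copies, with 6222 and 3776 reads (0.72). Read totals and ratios thus did not rank the clusters alike.

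Within the clusters wholly higher in OTX2high, the ratio was smallest at gene starts and larger away from them. Of their regions, 76 had their centre within 0.5 kb of the nearest start and a median log2 ratio of 0.51, with medians of 473 and 330 reads. From 0.5 to 2 kb downstream, 312 regions had a median of 0.54 (576 and 396 reads), and upstream 193 regions had 0.62 (326 and 212 reads). From 2 to 10 kb, the median was 1.37 downstream (362 regions, 91.7 and 38.2 reads) and 1.63 upstream (133 regions, 60.6 and 17.6 reads). Beyond 10 kb it was 2.00 downstream (399 regions, 48.7 and 12.5 reads) and 1.74 upstream (225 regions, 73.4 and 26.3 reads). Depth moved with distance: the regions with large ratios were also those with few reads, where only a large ratio can pass the authors' threshold. The part of read number in the rise was not tested. Regions higher in OTX2high outside the clusters rose too, so the rise was not particular to clusters. Their median was 0.52 within 0.5 kb, and beyond 10 kb it was 2.97 downstream and 2.56 upstream. Between 0.5 and 10 kb, 674 regions lay downstream of a start and 326 upstream, so 67.4% lay on the side of the gene body, against 75.0% of the differential regions outside clusters.

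**Figure D3:**
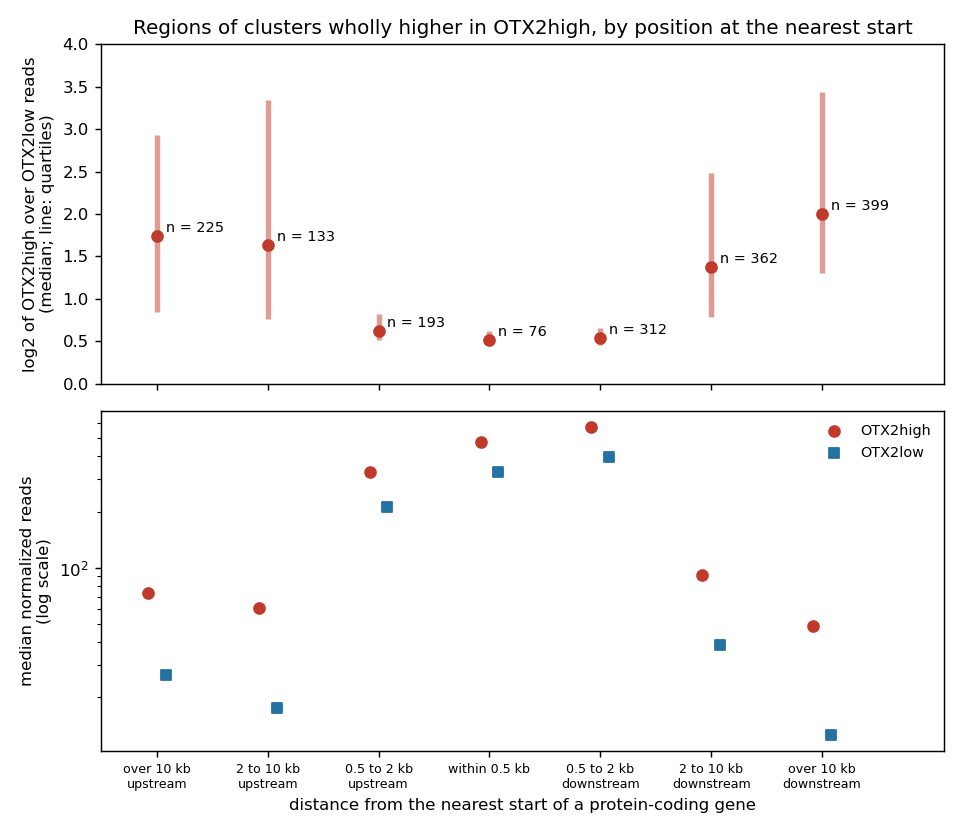
Regions of the clusters wholly higher in OTX2high, grouped by the distance of their centre from the nearest start of a protein-coding gene. The upper panel gives the median and quartiles of the log2 read ratio, lowest near the start (0.51) and highest over 10 kb downstream (2.00), and the lower panel gives median normalized reads on a log scale, which are highest near the start.

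Promoters with few CG pairs were more frequent among starts with a large ratio. In cluster regions with a log2 ratio of 1 or more lay 20 starts of 17 genes, with a median of 5 CG pairs in the 250 bases before the start, and 13 of the 20 (65.0%) held under 10. In regions with a ratio of 0 to 1 lay 383 starts with a median of 19, and 58 (15.1%) held under 10. Starts in regions with a ratio between -0.7 and 0 were the richest, with a median of 29 CG pairs and 0 of 23 under 10. At -0.7 or lower, 23 starts had a median of 15, and 9 (39.1%) held under 10. Over all starts in the table, 34.5% held under 10. The same 4 ranges outside the clusters gave 60.1% of 223, 12.8% of 2945, 9.09% of 132 and 37.7% of 228 starts under 10, so this relation was not particular to clusters. The low group includes SPATS2L (1 pair), HKDC1 (3 pairs), MUC16 (6 pairs), the tooth enamel gene ENAM (1 pair) and 2 starts of CBX5 (3 and 4 pairs), which encodes heterochromatin protein HP1 alpha. The number of starts at large ratios is small, and several share a region. No chance test was made.

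**Figure D4:**
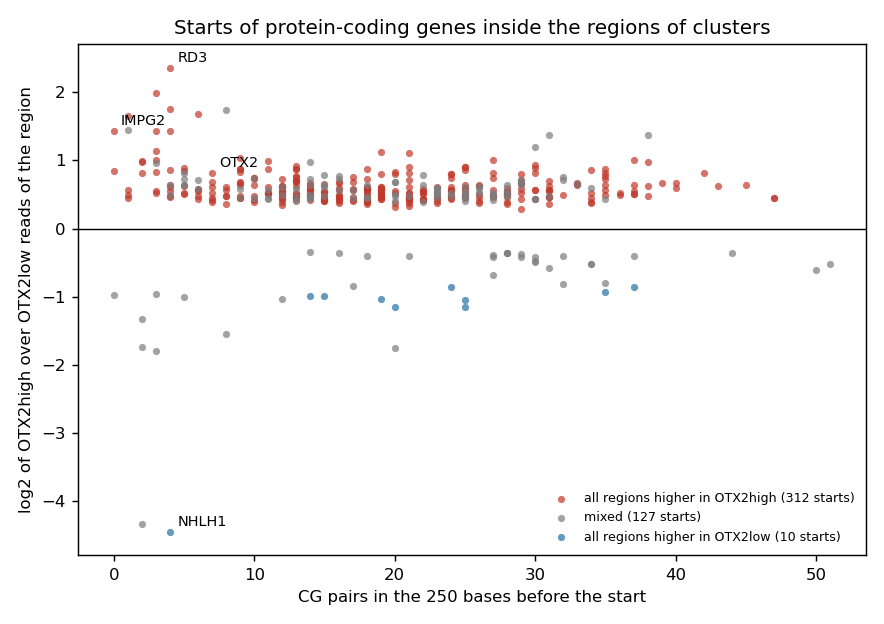
CG pairs in the 250 bases before each of 449 gene starts inside cluster regions (x axis) against the log2 ratio of OTX2high over OTX2low reads of the region that holds the start (y axis), colored by the make-up of the cluster. RD3 (4 CG pairs) and IMPG2 (0 CG pairs) lie high at the left, NHLH1 (4 CG pairs, -4.46) lies at the bottom left beside a start of FAM186A in a mixed cluster (2 CG pairs, -4.35), and most starts lie between 0 and 1.

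The cluster at NHLH1 stood at the opposite end. NHLH1 encodes a neuronal basic helix-loop-helix factor of differentiating neurons, and its cluster (chr1:160356701-160375700, next to NCSTN, a subunit of gamma-secretase) held 121 reads in OTX2high and 2263 in OTX2low. That is an 18.7-fold higher total in OTX2low (log2 -4.22, -4.47 to -3.98), the lowest ratio of any cluster with at least 100 reads. The region at the NHLH1 start held 98.1 and 2154 reads (-4.46), and the other 3 held 2.39 and 36.4, 6.38 and 28.8, and 14.4 and 43.9. The start region alone held 95.2% of the OTX2low reads of the cluster. The next-lowest ratios lay far from any gene or at weaker clusters.

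Only 10 clusters wholly higher in OTX2low touched a protein-coding gene, and most were weak. PLCH2, a phospholipase C of neurons, had 65.4 reads in OTX2high and 337 in OTX2low (log2 -2.37, -2.74 to -2.00). RIMBP2, a presynaptic scaffold protein, had 9.58 and 67.7 (-2.82). VANGL1, a planar cell polarity gene, had 1.60 and 42.6, which is 2 whole reads in OTX2high (-4.74, -7.84 to -2.78). TARS3, a threonyl-tRNA synthetase, had 7 regions with 358 and 816 reads (-1.19, -1.36 to -1.01). CRMP1, a collapsin response mediator of axon guidance, had 216 and 440 reads (-1.03, -1.26 to -0.79), and ELFN1, a synaptic leucine-rich repeat protein, had 438 and 885 (-1.01). The catenin ARVCF (205 and 400 reads, -0.96) and the pair COXFA4L2 and STAC3 (359 and 611 reads, -0.77) had the smallest differences among these 9, and the REXO1L array described below is the tenth. All 10 are named because the class is small, and those outside the rule for named clusters were chosen after their values were seen.

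Several clusters wholly higher in OTX2low lay over repeated gene arrays. The cluster with the most regions, 23, lay over the REXO1L array on chromosome 8 (chr8:85713501-85822300), tandem copies of an exonuclease-like gene of which the annotation names 7 as pseudogenes here. It held 7018 reads in OTX2high and 12711 in OTX2low (log2 -0.86, -0.90 to -0.82), and its regions ran only from -1.04 to -0.69. The 3 clusters at DUX4L genes, copies of the homeobox gene DUX4 in subtelomeric repeats, had similar ratios. Of these, chr10:133664001-133690700 (7 DUX4L genes) held 2273 and 4058 reads (-0.84), chr10:133740201-133764500 (7) held 1295 and 2600 (-1.01), and chr4:190064801-190093100 (8) held 1686 and 3205 (-0.93). On chromosome X, the cluster at the RNA genes DANT1 and DANT2, which flank the DXZ4 tandem repeat, had 8 regions with 188 and 593 reads (chrX:115843501-115889400, log2 -1.66, -1.89 to -1.43). Its neighbour at chrX:115726001-115737900 had 5 regions with 306 and 720 reads (-1.23). How reads that match several copies were placed is not given in the sources used here, so the reads of single copies in these arrays are uncertain.

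The other clusters wholly higher in OTX2low touched no protein-coding gene. On chromosome 19, clusters at chr19:36270501-36310200 (11 regions, 740 and 1675 reads, -1.18, 24253 bp from ZFP14) and chr19:37268501-37303100 (9 regions, 1032 and 2299 reads, -1.16, 9737 bp from ZNF875) were close in ratio, as was chr17:22375601-22407800 (11 regions, 454 and 1017 reads, -1.16). Of the 29 gene-free clusters wholly higher in OTX2low, 22 lay over 100 kb from any protein-coding gene, at a median of 407414 bp. Among the gene-free clusters with at least 100 reads in a library, the 4 lowest ratios were at chr8:45828501-45876400 (20.7 and 128 reads, -2.62), chr15:18758201-18777500 (19.2 and 100.3, -2.39), chr13:17032701-17072900 (29.5 and 134, -2.18) and chr8:44427301-44483500 (42.3 and 153, -1.85).

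The gene-free clusters wholly higher in OTX2low were divided by ratio, after the values were seen, into 14 with a log2 ratio of -0.7 or more and 15 below it. The first group ran from -0.65 to -0.52, a range that the division limits, and together its 14 clusters held 8.59% of the OTX2high and 16.4% of the OTX2low reads of all clusters. They include 4 of the 5 clusters with the most reads in the series: chr10:41844801-41916800 (15 regions, 11742 and 16990 reads, -0.53), chr1:143183901-143208800 (10761 and 16298, -0.60), chr16:46383101-46402400 (11167 and 16190, -0.54) and chr4:49129201-49156900 (7603 and 11154, -0.55). Within the chromosome 10 cluster the 15 regions ran from -0.67 to -0.47. A neighbour at chr10:42065501-42105300, with 11 regions, held 5987 and 8662 reads (-0.53).

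Clusters wholly higher in OTX2low had lower values over IgG than the others. The differential table of the authors gives each region a ratio of ChIP over IgG, and the median of the clusters was 16.6 in OTX2high and 9.12 in OTX2low for clusters wholly higher in OTX2high. It was 1.66 and 2.06 for clusters wholly higher in OTX2low, and 17.1 and 14.9 for mixed ones. In the 14 clusters with ratios of -0.65 to -0.52 it ran from 0.60 to 2.09 in OTX2high and from 1.14 to 2.06 in OTX2low. For them the log2 ratio between conditions of this ChIP over IgG value had a median of -0.14 (-0.93 to 0.02), against -0.53 from reads. For the other 15 gene-free clusters it was -0.87 against -1.18, and their ChIP over IgG value reached 4.73 in OTX2high and 6.81 in OTX2low. Clusters wholly higher in OTX2high had 0.92 against 0.66, and mixed ones 0.37 against 0.34. The REXO1L array had 0.78 in OTX2high and 1.38 in OTX2low. The ratio uses the IgG library that the authors set against each condition, and the labels of those IgG libraries are in conflict. The values over IgG are medians over regions and the read ratios come from sums, so the measures are unlike. The part of IgG signal in the read differences of these blocks was not tested, and no repeat annotation was used.

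Mixed clusters held regions of opposite direction within a few kb. A near-equal total was found at an array of 14 tRNA genes at chr1:161454501-161474100, with 7890 reads in OTX2high and 8304 in OTX2low (log2 -0.07, -0.12 to -0.03). Its 6 regions alternated in direction along the array, at -0.29, 0.37, -0.31, 0.34, -0.29 and 0.43. The 3 regions higher in OTX2low held 1594 and 1944, 1623 and 2017, and 1657 and 2027 reads. The 3 higher in OTX2high held 844 and 652, 1001 and 792, and 1172 and 871. The total thus hid opposite ratios of similar size. The same tRNA gene names recur along the array as numbered copies, so its regions may not be independent. How reads that match several copies were placed is not given, so the reads of its single regions are uncertain. Some clusters with tRNA genes were higher in OTX2high at larger ratios: one on chromosome 6 with 5 of them held 1465 and 610 reads (1.26), another there with 6 held 2069 and 1336 (0.63), and a cluster on chromosome 11 with 8 held 1669 and 1029 (0.70). In all, 56 of 443 annotated tRNA genes (12.6%) lay in a cluster, 39 in one higher in OTX2high and 17 in one higher in OTX2low. Those 17 include the 14 of the near-equal array, and no tRNA gene lay in a cluster wholly higher in OTX2low.

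Among the classes of RNA gene, tRNA genes had the largest share inside clusters. By overlap with the gene body alone, 51 of 1196 snoRNA genes (4.26%), 39 of 1911 miRNA genes (2.04%), 270 of 18177 lncRNA genes (1.49%) and 935 protein-coding genes (4.68%) lay in a cluster. Of 79 pseudogenes in clusters (0.519% of 15212), 30 lay in clusters wholly higher in OTX2low, and most of those were the REXO1L and DUX4L copies described above. Genes of a class often share a cluster, since the 56 tRNA genes lay in 16 clusters and the 51 snoRNA genes in 20. The host gene MIR17HG, with 6 miRNA genes of the oncogenic miR-17 group, lay in a cluster of 2716 and 2146 reads (0.34).

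At BTG1, an antiproliferative gene, the direction changed with position. The region at the start had 989 reads in OTX2high and 717 in OTX2low (0.46), and the region on the side of the gene body had 1090 and 1809 (-0.73). The summed cluster was 2097 and 2527 (-0.27, -0.35 to -0.18). At SLC17A7, a vesicular glutamate transporter of neurons, one region had 903 and 1630 reads (-0.85), and the 3 regions toward PIH1D1 were at 0.46, 0.53 and 0.52. CCNE2, which encodes cyclin E2, and NDUFAF6 shared a cluster with 3358 and 3134 reads (0.10). In these clusters the sum hid regions of opposite sign.

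One mixed cluster at histone genes on chromosome 1 (H4C14, H3C14 and H2AC18 among others) summed to 1954 and 2764 reads (-0.50). These genes have near-identical copies, so the reads of single genes there are uncertain. Another mixed cluster on chromosome 1, with 2 histone genes, was higher in OTX2high. Of the mixed clusters higher in OTX2low, those at KIF26A (-0.80), L1TD1 (-0.79), BAIAP2 (-0.54), ZBTB18 (-0.49) and MAP1B (-0.29) were named after their values were seen. Regions at a start in mixed clusters were higher in OTX2high in 73 of 104 cases and higher in OTX2low in 31. Outside the clusters, 296 of 2767 differential regions at a start were higher in OTX2low, a smaller share. Mixed clusters hold regions of both directions by definition, so the 2 shares are not chosen alike. All 240 start regions of the clusters wholly higher in OTX2high were higher in OTX2high by definition.

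Genes of 12 lists were looked up at the clusters, and the share of a list at a cluster ran from 0% (such as HOX genes) to 24.4% (cell cycle and MYC genes). Most of the genes found lay in clusters higher in OTX2high, as were 90.0% of all clusters. Reads given for a gene are those of its whole cluster, which can touch further genes. For comparison, 4.89% of all protein-coding genes lay at a cluster, 4.64% at one higher in OTX2high and 0.255% at one higher in OTX2low. Of 58 neuronal differentiation genes 8 lay at a cluster, 6 higher in OTX2high and 2 in OTX2low. The layer-specifying factor TBR1 had 2040 and 1375 reads (0.57), ZIC1, a zinc finger factor of the cerebellum, 1387 and 978 (0.50), and the homeobox gene BARHL2 799 and 582 (0.46). NHLH1 and the homeobox gene BARHL1 (110 and 184 reads, -0.74) were the 2 in the other direction. Of 56 axon guidance genes 7 lay at a cluster, 6 of them higher in OTX2high. The semaphorins SEMA3F (2865 and 1660 reads, 0.79) and SEMA6D (2436 and 1434 reads, 0.76, and 1523 and 931 reads, 0.71) had the most reads, and EPHB3, an ephrin receptor, had 561 and 590 (-0.07, with an interval of -0.24 to 0.10 that spans 0).

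Developmental transcription factors gave 11 of 117, all in clusters higher in OTX2high by summed reads, although the interval at LHX1 (-0.04 to 0.22) spans 0. LHX8, a factor of basal forebrain neurons, had 3113 and 1631 reads (0.93), and the nuclear receptor NR2F2 had 1537 and 951 (0.69). Wnt, Shh and BMP signaling gave 7 of 66, all higher in OTX2high, led by the hedgehog receptor PTCH1 (2559 and 1710 reads, 0.58) and the Wnt receptors FZD5 (1300 and 905, 0.52) and LRP6 (1008 and 717, 0.49). Cell cycle and MYC genes gave 11 of 45, all higher in OTX2high by summed reads. CCNE2, at 0.10, was given above, MYC had 2672 and 2150 reads (0.31) and the replication clamp PCNA had 2371 and 1524 (0.64). The MYC cluster also held a region of 1.60 and 22.6 reads.

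Writers, readers and erasers of these marks gave 9 of 44 Polycomb and Trithorax genes, 8 higher in OTX2high. PCGF2, of Polycomb complex 1, had 3456 and 2486 reads (0.48), SETD1B, an H3K4 methyltransferase, 1427 and 1007 (0.50), and RBBP4, a histone-binding subunit of several complexes, 1304 and 888 (0.56). KDM5B, an H3K4 demethylase, had 1311 and 1519 (-0.21, -0.32 to -0.10). Housekeeping genes gave 2 of 30, both higher in OTX2high, with POLR2A, the largest subunit of RNA polymerase II, at 1012 and 578 reads (0.81). None of 39 HOX genes, 14 glial markers or 19 mesenchymal, muscle and epithelial markers lay at a cluster, and 1 of 20 immune, blood and endothelial markers did (CD4, in the cluster shared with GNB3). Median log2 ratios of the lists with at least 2 members at clusters ran from 0.50 to 0.76, near the 0.59 of all clusters.

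H3K27me3 peaks were unevenly spread over the clusters. A peak of H3K27me3 in both deposited lists overlapped 50 of 648 clusters (7.72%), against 3.98% of all differential H3K4me3 regions, which are shorter. Of the 39 clusters wholly higher in OTX2low, 30 (76.9%) had such a peak, against 7 of 472 (1.48%) wholly higher in OTX2high and 13 of 137 (9.49%) mixed ones. Counted by region, to set aside the greater length of the clusters higher in OTX2low, the shares were 120 of 228 (52.6%), 12 of 1776 (0.68%) and 21 of 526 (3.99%). The gene-free ones carried most of this: 25 of 29 (86.2%) gene-free clusters wholly higher in OTX2low had a peak, and 5 of 10 at a gene had one. An overlap of 1 bp was enough for this count. In the lists labelled OTX2high and OTX2low, peaks covered a median of 6.11% and 16.4% of the 29 gene-free clusters. The medians for the 10 at a gene were 10.9% and 3.04%. The authors called peaks in each library against an IgG library. With peaks of at least 4-fold in both lists, 12 of the 39 clusters wholly higher in OTX2low had one. For the H3K27me3 lists, the sample labels and the file headers name opposite conditions, so no direction is drawn from those lists.

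**Figure D5:**
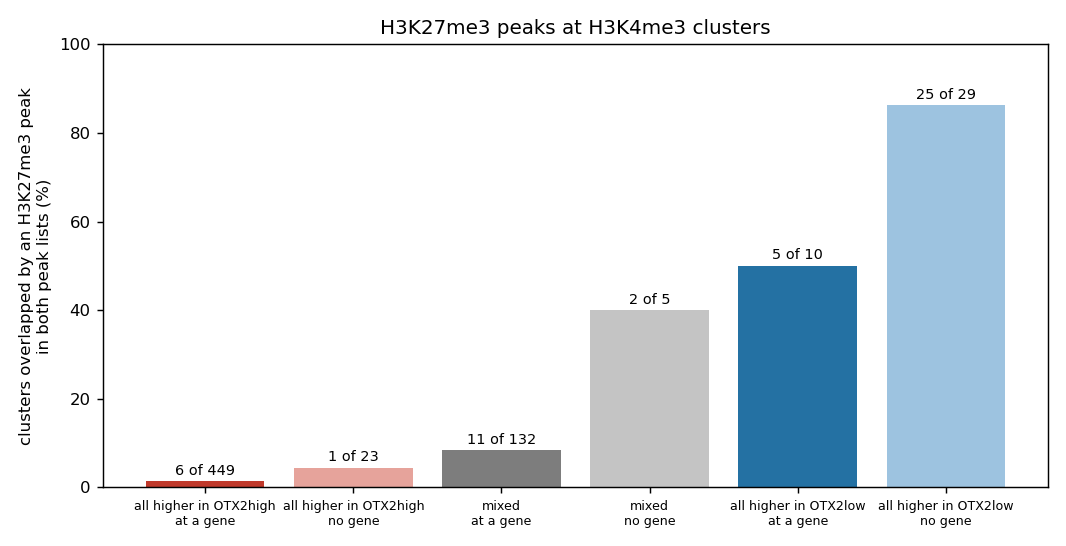
Percent of clusters overlapped by an H3K27me3 peak of both peak lists, by make-up and by whether the cluster touches a protein-coding gene, with the number of clusters above each bar. Gene-free clusters wholly higher in OTX2low reach 86.2% (25 of 29), and clusters wholly higher in OTX2high at a gene reach 6 of 449.

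Differential H3K27me3 regions lay at few clusters, and their direction split by class. The authors' table lists H3K27me3 regions numbering 9.38% of the windows in their adjustment, again a ratio of merged regions to windows, and 57.4% of the 5373 listed regions were higher in OTX2high by the names in that table. The sample labels give the same names as that table, whereas the headers of the H3K27me3 peak lists name the opposite conditions. If the names in the table are wrong, each of these directions turns round. Differential H3K27me3 regions overlapped 51 of 648 clusters, and 6.03% of all differential H3K4me3 regions. Of the 29 gene-free clusters wholly higher in OTX2low, 22 had one, all 22 higher in OTX2high by the table names, with H3K27me3 log2 ratios of 0.17 to 0.56. Of the clusters wholly higher in OTX2high 15 had one, 6 higher in OTX2high and 9 in OTX2low, and of the mixed clusters 10 had one, 4 and 6. Genes differed from the gene-free blocks: 4 of the 10 gene clusters wholly higher in OTX2low had one, 1 higher in OTX2high and 3 in OTX2low.

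A few gene clusters were covered widely by H3K27me3 peaks; they were chosen after their values were seen. In the list labelled OTX2high, peaks covered 95.3% of the PLCH2 cluster and in the list labelled OTX2low 50.1%. The figures were 90.8% and 54.8% at CRMP1, with an H3K27me3 log2 ratio of -0.31 by the table names, and 71.5% and 10.6% at RIMBP2 (-0.34). Clusters higher in OTX2high were covered too: 87.8% and 48.9% at the homeobox pair DLX1 and DLX2 (H3K4me3 433 and 228 reads, 0.92, and H3K27me3 -0.30), and 82.7% and 21.6% at the homeobox gene IRX1 (198 and 72.7 reads, 1.44, and -0.31). LHX1, a LIM homeobox factor, had 75.2% and 45.9% in a mixed cluster (1035 and 974 reads, 0.09, and -0.23). CYP1B1, a cytochrome P450 gene, had 37.4% and 0.74% (1323 and 622 reads, 1.09, and -0.55). The tRNA array of chromosome 1, where the placing of reads among copies is uncertain, had 93.2% and 80.4%. Differential H3K4me3 regions and H3K27me3 peaks thus lay within the same spans of bulk chromatin. H3K4me3 itself was weak at some of them: its peaks covered 0% of the PLCH2 cluster in OTX2high and 14.1% in OTX2low. A shared span does not show that one nucleosome or one cell carried both marks.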

How the data were processed

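H3K4me3 and H3K27me3 ChIP-seq of D283 tumorspheres was used in 1 library per mark and condition. The submitters' processing notes name Bowtie2 2.3.3.1, the build GRCh38 and MACS2 2.1.1.20160309. Narrow peaks, per the file headers, were called in each library against 1 IgG library at q 0.05, and conditions were compared with diffReps 1.55.6 (G-test, windows of 1000 bp moved by 100 bp for H3K4me3 and of 10000 bp by 1000 bp for H3K27me3, p-value limit 0.0001), whose clusters used a p-value limit of 0.001. The genome setting in that header is hg19 while the reads were on GRCh38, so ends of some chromosomes were not listed.

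The deposited values are normalized read signal per region, the authors' fold ratio of ChIP over IgG, a log2 ratio per region, p-values, and MACS2 peak fold enrichment and −log10 values. From them, reads were summed per cluster and their log2 ratio taken. Whole reads were recovered from the normalized signal (steps of 0.797724 and 1.25357, 100% of values whole within 0.05) and gave exact 95% Clopper-Pearson intervals. Deeper libraries give narrower intervals. The calculation was tested on simulated data. Python 3.11.15, pandas 2.3.3, scipy 1.17.1 and matplotlib 3.10.9 were used, with overlaps of at least 1 bp.

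Protein-coding genes (19974) were from a RefSeq table and promoters from a RefSeq table of GRCh38.p14 that holds starts of 15812 of them (79.2%) and none on chromosome 8. Named clusters were the 10 with the most regions, the 10 largest and 10 smallest log2 ratios among those with at least 100 reads, the 5 mixed clusters with the most reads in the rarer direction, the 5 with the most reads, and per gene list up to 3 genes in each direction. Other named genes are said to be chosen after their values were seen. Some clusters that this rule names are not reported here. Clusters, members and gene lists were chosen with earlier results of these data known. Alternatives were the number of regions, how direction is set, read, peak and p-value filters, scaling, gene flank and H3K27me3 peak strength. The 2 IgG libraries had no peak list analysed here.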

Additional observations from a re-analysis of the deposited data

How the results depend on the processing

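Of 18 alternatives, 10 moved the values little and 8 moved them; after recentring, fewer clusters lay on the OTX2high side than on the other. The share of clusters higher in OTX2high (90.0%) became 86.8% with at least 4 regions, 84.1% with at least 5, 72.8% when every region had to be higher, 80.0% when the authors' adjusted p-value of the cluster had to be 0.001 or less, and 46.1% after recentring on all differential regions. The median log2 ratio (0.59) became 0.68 with at least 5 regions. The share with an H3K27me3 peak in both lists (7.72%) became 4.32% for peaks of at least 4-fold and 5.56% for at least 500 bp covered, and 12 and 25 of the 39 clusters wholly higher in OTX2low then kept one. The share at a protein-coding gene (91.2%) was 91.0% for gene bodies alone and 92.0% with 10000 bp added. No library could be left out, since each condition has 1. No paired analysis was possible because each mark has 1 library per condition and the result comes from no test. Depth limits the weak regions: clusters with few reads have wide intervals, and replicate error is not known.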

Other observations

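The differential table stops short of the end of some chromosomes, and it lists no cluster there. H3K4me3 peaks beyond the last listed region numbered 101 in the OTX2high list and 95 in the OTX2low list on chromosome 17, 54 and 55 on chromosome 20, 29 and 28 on chromosome 18, and 27 and 26 on chromosome 5.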
